A study of Mus musculus with 20 samples.

Results

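The 15 knee joints that had received mesenchymal stromal cells (MSC) were compared as 1 set with the 5 joints that had received needle insertion alone. The 15 joints were all those labelled MSC, TLR or STING among the 20 joints sequenced, 5 of each cell preparation, and no measured value was used to choose them. The comparison asked which genes differed from control after cell injection whatever the preparation, and whether the 3 preparations differed among themselves at those genes.

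All mice were 12-week-old male C57BL/6Nci mice with osteoarthritis induced in the right knee by destabilization of the medial meniscus (DMM), the surgical release of the ligament that anchors the inner meniscus. Control joints received the needle alone in weeks 3 and 5 after surgery, and the other joints received adipose-derived MSC at those times. The cells were non-activated (MSC), activated with polyinosinic-polycytidylic acid, an agonist of the double-stranded RNA receptor TLR3 (TLR3-MSC), or activated with 2'3'-cGAMP, an agonist of the DNA-sensing adaptor STING (STING-MSC). The cells came from pooled fat of male donors of the same strain, so RNA of injected cells and RNA of the host joint cannot be told apart by genotype. Each sample was 1 joint of 1 mouse, taken whole with cartilage, synovium, capsule and the neighbouring bone. The control joints received no cells of another kind, and the needle alone gave them none of the saline that carried the cells. Effects of stromal cells, of any cell suspension and of the injected fluid therefore cannot be told apart. The study's methods put collection at 8 weeks after surgery, its results put it at 24 h after injection, and the hour of the day was not given in the sources used here. Mice were caged in groups of 5, and whether a cage held 1 treatment group was not given either.

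MSC are connective tissue progenitors that are given to inflamed joints mainly for the factors they release. The joint tissue they enter holds synovial fibroblasts and macrophages, cartilage and bone cells, vessels, and the marrow of the bone ends, where neutrophils are made and stored. Neutrophils and monocytes find injured tissue through chemokine receptors, and respond there to cytokines of the IL-1 family, which signal through paired receptor chains and are held in check by decoy receptors and antagonists. In bulk tissue, more cells of a type and more RNA per cell cannot be told apart.

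Values are normalized counts, that is, reads per gene divided by a scaling factor for each joint. From 27955496 to 52529972 reads per joint lay on the 14793 genes, with a median of 33230113 in control joints and 33771968 in injected joints (exact permutation test of the means, two-sided, p = 0.706). No pair of joints of a group agreed within sampling noise. MSC replicate 5 was apart from the rest with 296 genes listed at 0, 239 of them in that joint alone, and STING-MSC replicate 5 had 97 genes at 0. Differences are given on the scale of log2(normalized count + 1), as the mean of the 3 injected groups minus the control mean, a scale on which changes of low genes come out too small. They were tested with limma over all 20 joints, and the false discovery rate (FDR) is the Benjamini-Hochberg value over all genes. The median difference over all genes was -0.02.

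At an FDR of at most 0.05, 7 genes rose after cell injection and 0 fell, that is 0.0473% and 0.0% of the genes tested. The genes were Il36g, Dhrs9, Ccr1, Zfp276, Abhd5, Cd300ld and Il1r2. Of these, 4 encode a cytokine or a receptor of leukocytes (Il36g, Il1r2, Ccr1 and Cd300ld), 1 a regulator of fat breakdown (Abhd5), 1 a dehydrogenase (Dhrs9) and 1 a zinc finger protein (Zfp276). At an unadjusted p of at most 0.05, 943 genes were higher (6.37%) and 423 lower (2.86%), 9.23% of all genes together. The single preparations gave fewer calls against the same control joints, 1 gene (0.00676%) in MSC, 0 (0.0%) in TLR3-MSC and 0 (0.0%) in STING-MSC joints, with 8.55%, 3.58% and 12.2% of genes within an unadjusted p of 0.05. Over all 15 joints and 7 genes, 97 of 105 values lay above every control joint, and the 8 exceptions were all in replicate 2 of an injected group. In all 7 genes control replicate 1 was the highest of the 5 control joints, whereas it was the highest for 18.3% of all genes.

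The sequence before the transcript start is given for 3 of the called genes, to show the promoters of the gene with the smallest p (Il36g), of the gene with the smallest p among the preparations (Dhrs9) and of a called gene of the myeloid receptor family (Cd300ld). Each run is the 250 bases before the start of the canonical GENCODE transcript in the mouse genome GRCm39, on the strand of the gene, at chr2:24076238-24076487 (plus strand) for Il36g, chr2:69210526-69210775 (plus strand) for Dhrs9 and chr11:114880749-114880998 (minus strand) for Cd300ld. Capitals mark matches to any of 9 short motifs searched on both strands. In Dhrs9 these are overlapping matches to the TATA box letters TATAAA, and in Cd300ld a match to PU.1 (AGAGGAAGT), the motif of a transcription factor of myeloid cells, that overlaps a match to the NF-kB motif on the other strand.
Il36g: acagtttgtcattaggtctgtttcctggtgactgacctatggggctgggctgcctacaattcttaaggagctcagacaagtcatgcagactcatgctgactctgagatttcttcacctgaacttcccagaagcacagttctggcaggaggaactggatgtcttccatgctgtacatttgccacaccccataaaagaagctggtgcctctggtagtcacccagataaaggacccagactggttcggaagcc
Dhrs9: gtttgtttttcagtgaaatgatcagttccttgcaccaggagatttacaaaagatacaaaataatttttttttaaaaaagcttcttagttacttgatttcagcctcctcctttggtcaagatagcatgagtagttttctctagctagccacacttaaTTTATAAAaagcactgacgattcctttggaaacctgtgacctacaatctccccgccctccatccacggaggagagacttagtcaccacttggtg
Cd300ld: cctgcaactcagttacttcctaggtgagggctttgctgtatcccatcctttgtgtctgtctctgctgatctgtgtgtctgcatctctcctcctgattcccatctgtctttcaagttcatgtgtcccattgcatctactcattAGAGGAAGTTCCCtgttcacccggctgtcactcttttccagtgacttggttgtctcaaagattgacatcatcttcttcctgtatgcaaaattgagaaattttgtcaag

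In windows from 250 bases before to 50 after the start, PU.1 letters were found for 1 of the 7 called genes and for 1.08% of 14770 genes, NF-kB letters for 1 and 1.62%, TATA letters for 2 and 8.94%, and AP-1 letters (TGACTCA) for 1 and 3.93%. The letters of C/EBP (TTGCNNAA), the interferon motif ISRE, CRE (TGACGTCA), ETS (CCGGAAG) and the E-box (CACGTG) were found for 0 of the 7, against 9.55%, 3.74%, 2.89%, 13.5% and 9.39% of all genes. With 7 genes, these matches describe the windows and carry no test.

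Both called members of the IL-1 family were a cytokine and a decoy receptor. Gene positions are those of the deposited table (GRCm39). Il36g (ENSMUSG00000044103, chr2:24076488-24083581) encodes IL-36 gamma, an agonist released by epithelial and myeloid cells. It had a normalized count of 731, 521, 444, 422 and 516 in control replicates 1 to 5, and of 729 to 1153 with a median of 929 in injected joints. The lowest injected joint lay just under control replicate 1, and 14 of 15 injected joints lay above every control joint. The means were 934 ± 139 (SD, n = 15) and 527 ± 122 (SD, n = 5), a log2 difference of 0.84 (standard error 0.13, FDR = 0.0291 from limma). The exact permutation test of control against injected joints gave p = 0.000258 (two-sided, n = 5 and 15), where the smallest p possible is 0.000129. The difference from control was 0.82 in MSC, 0.84 in TLR3-MSC and 0.86 in STING-MSC joints, and the 3 comparisons share their control joints. Il1rl2, which encodes the receptor chain of IL-36, had a log2 difference of 0.04 (unadjusted p = 0.663, limma).

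Il1r2 (ENSMUSG00000026073, chr1:40113239-40164392) encodes the decoy receptor that binds IL-1 without signalling. Its count was 592, 378, 359, 270.3 and 326 in the control joints and 509 to 1102, median 759, in injected joints. Control replicate 1 lay among the lowest injected joints, the other 4 control joints lay below all of them, and 12 of 15 injected joints lay above every control joint. The log2 difference was 0.98 (standard error 0.18, FDR = 0.0487 from limma), with 1.11 in MSC, 0.78 in TLR3-MSC and 1.05 in STING-MSC joints.

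Ccr1 (ENSMUSG00000025804, chr9:123762161-123768730) encodes a receptor for CCL3, CCL5 and related chemokines on neutrophils and monocytes. Its count was 2094, 1479, 1456.5, 1382 and 1365 in the control joints and 1785 to 2854, median 2495, after cell injection. Again only control replicate 1 reached the range of the injected joints, of which 13 of 15 lay above it. The log2 difference was 0.66 (standard error 0.11, FDR = 0.0406 from limma), and 0.69, 0.60 and 0.68 in the MSC, TLR3-MSC and STING-MSC groups.

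Cd300ld (ENSMUSG00000034641, chr11:114873100-114880749) encodes an activating immunoglobulin-like receptor of myeloid cells. Its count was 757, 617, 738, 688 and 576 in the control joints and 780.3 to 1249, median 983, in injected joints. The groups did not overlap, and the log2 difference was 0.56 (standard error 0.10, FDR = 0.0487 from limma), with 0.68 in MSC, 0.49 in TLR3-MSC and 0.52 in STING-MSC joints. Its related copies Cd300ld2 and Cd300ld3 were not analysed here, and whether reads were shared with them was not tested.

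Dhrs9 (ENSMUSG00000027068, chr2:69210789-69234878), a short-chain dehydrogenase of retinoid and steroid substrates, had the smallest p for a difference among the preparations of the 7 called genes. Its count was 601, 476, 417, 386 and 463 in the control joints and 564 to 1409.8, median 837, in injected joints, 14 of which lay above every control joint. The log2 difference was 0.89 (standard error 0.14, FDR = 0.0291 from limma). Against the same controls it was 1.26 in MSC, 0.68 in TLR3-MSC and 0.74 in STING-MSC joints, and the test among the preparations gave an unadjusted p of 0.00561 (limma F test, FDR = 0.917).

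Abhd5 (ENSMUSG00000032540, chr9:122180673-122210590) encodes the coactivator of the triglyceride lipase Pnpla2 on lipid droplets. Its count was 1791, 1665, 1581, 1616.5 and 1602 in the control joints and 1831 to 2255, median 2025, after cell injection. No injected joint lay within the control range, although the log2 difference was 0.28 (standard error 0.05, FDR = 0.0487 from limma). Pnpla2 itself had a log2 difference of 0.09 (unadjusted p = 0.474, limma).

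Zfp276 (ENSMUSG00000001065, chr8:123980934-123996485) had a count of 698, 547, 586, 507 and 489 in the control joints and 691 to 1009, median 785, in injected joints, 14 of which lay above every control joint. Its log2 difference was 0.54 (standard error 0.10, FDR = 0.0487 from limma). The gene shares 1447 bases with Fanca and 155 with Vps9d1, whose log2 differences were 0.26 and 0.11 (unadjusted p = 0.0912 and 0.0606, limma), and the strand setting of the counting was not given, so its reads may belong in part to these genes.

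**Figure D1:**
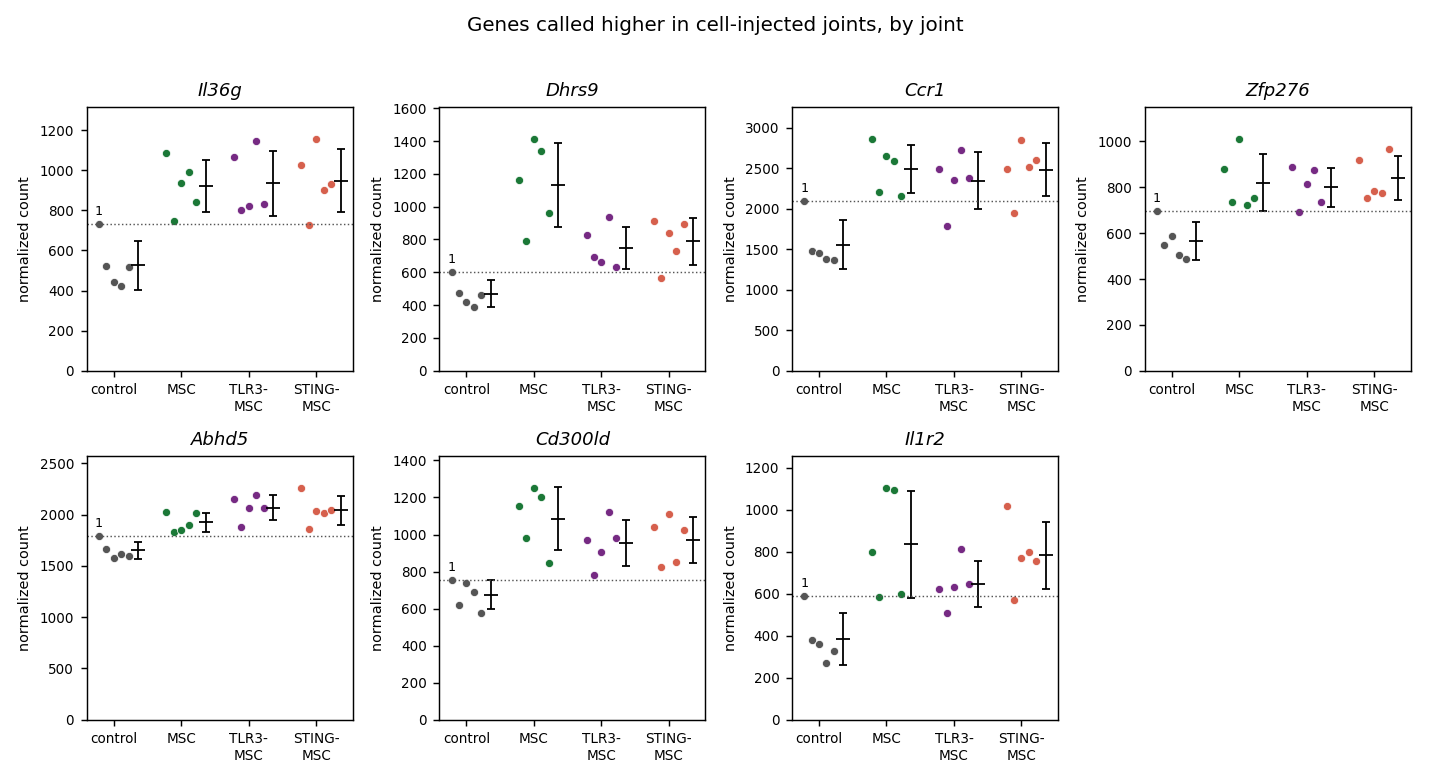
Normalized count of the 7 called genes in each of the 20 joints, with the mean ± SD (n = 5) of each group beside its points and a dotted line at the highest control joint, which is control replicate 1 (marked 1) in every panel. For Abhd5 and Cd300ld all 15 injected joints lie above the line, and for the other 5 genes 12 to 14 of 15 do.

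The number of calls depended on single joints and on the processing. Of the 7 calls 0 were kept after quantile normalization or without any one preparation, and 2 with edgeR. Without control replicate 1, limma called 41 genes higher and 2 lower, without STING-MSC replicate 2 it called 24 higher, and without MSC replicate 2 it called 19. It called 0 genes without any one of control replicates 2 to 5, MSC replicates 1 or 4, TLR3-MSC replicate 1 or STING-MSC replicates 1, 3, 4 or 5, and 2 without MSC replicate 3 or TLR3-MSC replicates 3, 4 or 5. It called 7 and 8 without TLR3-MSC replicate 2 and MSC replicate 5. Under all 36 alternatives, the 12 higher genes with the smallest p kept their direction and an unadjusted p of at most 0.05. They were chosen for their small p in these same joints, and that threshold is far looser than the FDR. This outcome was therefore nearly fixed in advance and is no separate support for the calls.

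The 5 higher genes next in rank missed the threshold of 0.05, with an FDR of 0.0544 to 0.0587 from limma. Il6ra, which encodes the ligand-binding chain of the IL-6 receptor, had a count of 2709, 2018, 1965.5, 1890.5 and 1925.5 in the control joints and 2464 to 3613, median 3008, in injected joints (log2 difference 0.51). Cxcr2, which encodes the receptor that brings neutrophils out of the marrow and into tissue, had a count of 3683, 2796, 2293, 1982 and 2612 in the control joints and 3358 to 5893.5, median 4100.2, in injected joints (log2 difference 0.73). In both, control replicate 1 lay within the injected range and the other 4 control joints below it.

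Arg2, the mitochondrial arginase, had a count of 86.8, 94.2, 49.0, 52.1 and 51.0 in the control joints and 90.5 to 214, median 128, in injected joints, a log2 difference of 1.05, with 14 of 15 above every control joint. Foxd4, a forkhead transcription factor, had a count of 141, 134, 123, 84.9 and 119 against 149 to 276, median 203, a log2 difference of 0.81 with no overlap. Card10, a scaffold of NF-kB signalling, had a log2 difference of 0.31, also with no overlap between 798 to 891 in control joints and 927 to 1177 in injected joints.

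Groups that did not overlap at all were found for 7 genes with all 15 injected joints higher (0.0473%) and 0 with all lower (0.0%). Beside Abhd5, Cd300ld, Card10 and Foxd4 these were Slc7a11, the cystine and glutamate exchanger, Fbxl5, an iron-sensing ubiquitin ligase subunit, and Sycp2, a synaptonemal complex protein, with log2 differences of 1.2, 0.30 and 0.60. The last 3 were chosen after their values were seen. Their FDR from limma was 0.0589, 0.0587 and 0.194.

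Among the 3 preparations, 0 genes differed at an FDR of at most 0.05 (0.0%), and 499 (3.37%) at an unadjusted p of at most 0.05, by limma's F test. That test does not use the control means, but the control joints enter its estimate of the spread. The same test on the recovered reads called 1 gene with edgeR and 25 with DESeq2. Of the 943 genes higher at an unadjusted p of at most 0.05, 56 (5.94%) had an F test p of at most 0.05, and of the 423 lower genes 24 (5.67%). Of the 7 called genes only Dhrs9 did. A p that misses the threshold does not show that the preparations acted alike.

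**Figure D2:**
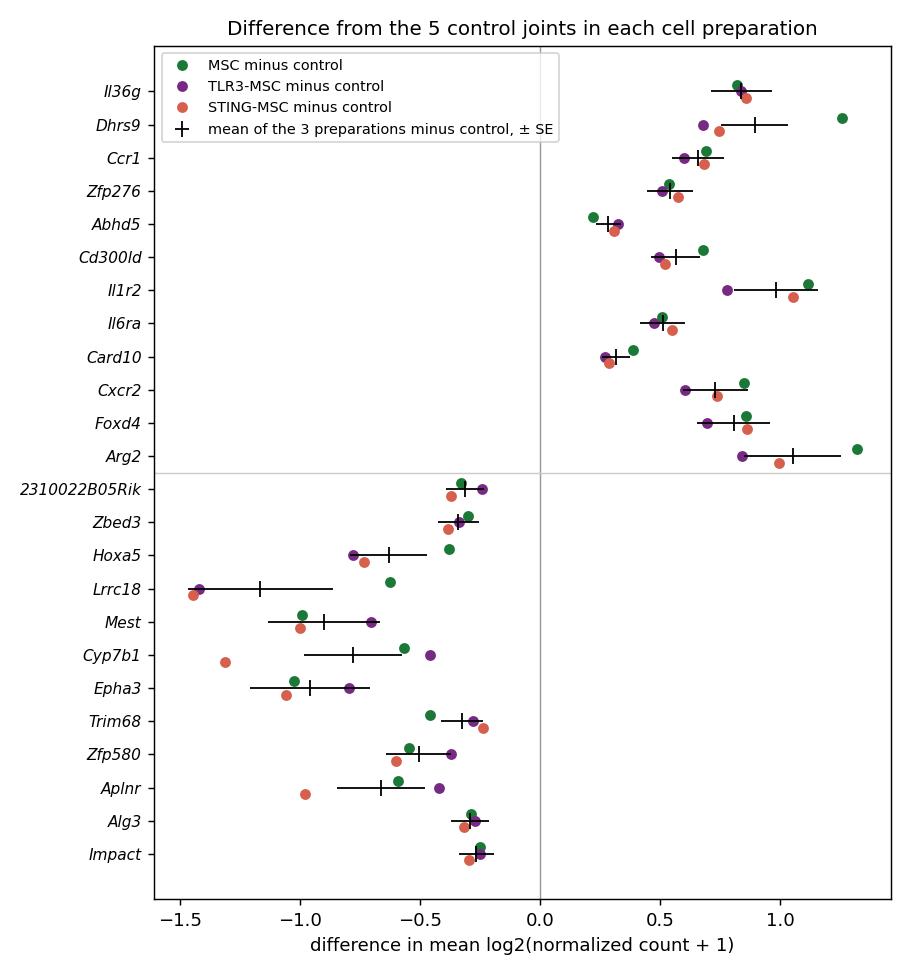
Difference from control in mean log2(normalized count + 1) for MSC, TLR3-MSC and STING-MSC joints, with the mean of the 3 preparations ± standard error, for the 12 higher and 12 lower genes with the smallest p. The 3 comparisons share the 5 control joints, and of the 24 genes Cyp7b1 (-0.57, -0.46 and -1.31) and Dhrs9 (1.26, 0.68 and 0.74) have the smallest F test p, 0.00537 and 0.00561.

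Neutrophil genes were higher as a list in injected joints. All 18 markers had a positive difference, with a median of 0.42 against -0.02 over all genes, and 11 (61.1%) passed an unadjusted p of 0.05 against 6.37% of all genes, although 0 were called. Control replicate 1 was the highest control joint for 17 of the 18, so the markers are not independent measurements. Members of a list can vary together between joints, so such shares, here and in the lists below, carry no test. Genes of mature neutrophils had the smallest p, among them Cxcr2, the growth factor receptor gene Csf3r (0.59) and the collagenase gene Mmp8 (0.53). The alarmin genes S100a8 and S100a9 had differences of 0.55 and 0.53 (unadjusted p = 0.0039 and 0.00774, limma). The genes of early granules, Mpo, Elane and Ctsg, had differences of 0.33, 0.34 and 0.28 (unadjusted p = 0.1, 0.0824 and 0.126, limma). The summed level of the 18 markers was 817930, 671250, 585140, 468650 and 525460 in control replicates 1 to 5, from 651130 to 1104300 after MSC, from 619210 to 943600 after TLR3-MSC and from 652300 to 1022500 after STING-MSC, and the groups overlapped. The level was the highest of the control joints in replicate 1, as were the called genes Il1r2, Ccr1 and Cd300ld, and its part in their differences was not tested. The count of 11 was 6 without control replicate 4, 7 without control replicate 5, and 2 without control replicates 3 and 4 together. It was 15 without control replicate 1 or MSC replicate 5, and 14 without MSC replicate 2.

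Myeloid paired receptors, the activating and inhibitory receptors through which phagocytes sense damage and pathogens, also lay on the higher side. Of 29 genes, 15 (51.7%) were higher at an unadjusted p within 0.05 and 0 lower, with a median difference of 0.35 and 1 called gene, Cd300ld. Clec4d and Clec4e, lectins that bind microbial glycolipids and dead cells, had differences of 0.75 and 0.80, and Trem1, which amplifies inflammation in neutrophils and monocytes, 0.60. Clec4d was 926, 714, 612, 687 and 535 in the control joints and 818 to 1819, median 1138, in injected joints, 11 of which lay above every control joint (FDR = 0.0699 from limma). The inhibitory receptor gene Pirb and the adaptor gene Tyrobp, which serves the activating receptors, had differences of 0.41 and 0.39. Without control replicates 3 and 4 together the count was 6 in place of 15, and with 1 joint left out it was between 11 and 18.

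In the IL-1 family list, 11 of 19 genes (57.9%) were higher at an unadjusted p within 0.05 and 0 lower, with a median of 0.21 and 2 called genes. Beside cytokines, receptors and antagonists the list holds the inflammasome and signalling genes Casp1, Nlrp3, Myd88, Irak3 and Irak4. All of these but Casp1 are among the 11, so the share is not one of cytokines and receptors alone. The cytokine gene Il1b had a difference of 0.36, and its antagonist gene Il1rn 0.38. The inflammasome sensor gene Nlrp3 had a difference of 0.42, and the adaptor gene Myd88 0.21. Not all members did so, since the signalling receptor gene Il1r1 had a difference of 0.04 and the alarmin gene Il33 of -0.36 (unadjusted p = 0.72 and 0.487, limma). Without control replicate 4 the count was 4 in place of 11, without control replicate 5 it was 7, and without control replicates 3 and 4 together it was 3.

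Among chemokine and complement genes, receptors of neutrophils had the smallest p. Of 20 chemokine receptor genes 5 (25%) passed an unadjusted p of 0.05 on the higher side, and 3 without control replicate 3. In order of p the 5 were Ccr1, Cxcr2, Cxcr1, Ccr10 and Ccr9, and Cxcr2 also counts in the neutrophil list. The receptor list as a whole was mixed, with 13 positive and 7 negative differences and a median of 0.06. Cxcr1 had few reads, with a count of 24.3, 9.66, 7.54, 16.4 and 2.04 in the control joints and 15.9 to 72.0, median 28.3, in injected joints (log2 difference 1.67, FDR = 0.158 from limma). Of 29 ligand genes 5 (17.2%) were higher, led by the B cell attractant gene Cxcl13 (1.37) and by Ccl6 (0.46), whereas the neutrophil attractant genes Cxcl1 and Cxcl2 had differences of -0.37 and -0.01 (unadjusted p = 0.553 and 0.976, limma). The count of 5 ligand genes was between 2 and 6 with 1 joint left out.

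In the complement list 5 of 24 genes (20.8%) were higher at an unadjusted p within 0.05, and 9 without MSC replicate 4. C5ar1, the receptor for the C5a fragment, was 2699, 2005.5, 2012, 1843 and 1652 in the control joints and 2330.1 to 3612, median 2991, in injected joints, with 9 of 15 above every control joint. The log2 difference was 0.52 (FDR = 0.0906 from limma), and that of the central component gene C3 was 0.48. Among Toll-like receptor and nucleic acid sensing genes 6 of 24 (25%) were higher, led by the endosomal RNA receptor genes Tlr8 (0.35) and Tlr13 (0.27). The receptor genes of the agonists themselves, Tlr3 and Sting1, had differences of -0.34 and 0.01 (unadjusted p = 0.1 and 0.907, limma).

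Other leukocyte lists had fewer such genes. Of 24 macrophage and monocyte markers 4 (16.7%) were higher at an unadjusted p of at most 0.05. They were Fcgr3 (0.42), Itgam (0.39), Lyz2 (0.37) and Ly6c2 (0.39), which neutrophils or circulating monocytes also carry. The count was 2 without control replicate 4 or 5. In the whole list 16 genes had a positive and 8 a negative difference, from -0.17 to 0.44 with a median of 0.08. In the B lineage list 0 of 16 and in the T and NK cell list 0 of 17 passed an unadjusted p of 0.05. Of 38 type I interferon-stimulated genes, 1 (2.63%) was higher at that threshold, Ifi27l2a (0.92), against 6.37% of all genes. A positive difference was found for 34 of the 38 and a negative one for 4, against 6746 and 8047 over all genes. The median of the list was 0.08, with 0.02, 0.15 and 0.15 for MSC, TLR3-MSC and STING-MSC. All 10 mast cell genes had a positive difference, with a median of 0.44, and 1 passed an unadjusted p of 0.05, the histamine-forming enzyme gene Hdc (0.77), which neutrophils also express. That count was 6 without control replicate 1, 5 without MSC replicate 4, 3 without control replicate 4 or TLR3-MSC replicate 1, 2 without MSC replicate 2 or STING-MSC replicate 2, and 5 after quantile normalization. The tryptase and chymase genes Tpsb2, Cma1 and Mcpt4 had differences of 0.83 to 0.84 (unadjusted p = 0.0818, 0.0647 and 0.0619, limma).

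**Figure D3:**
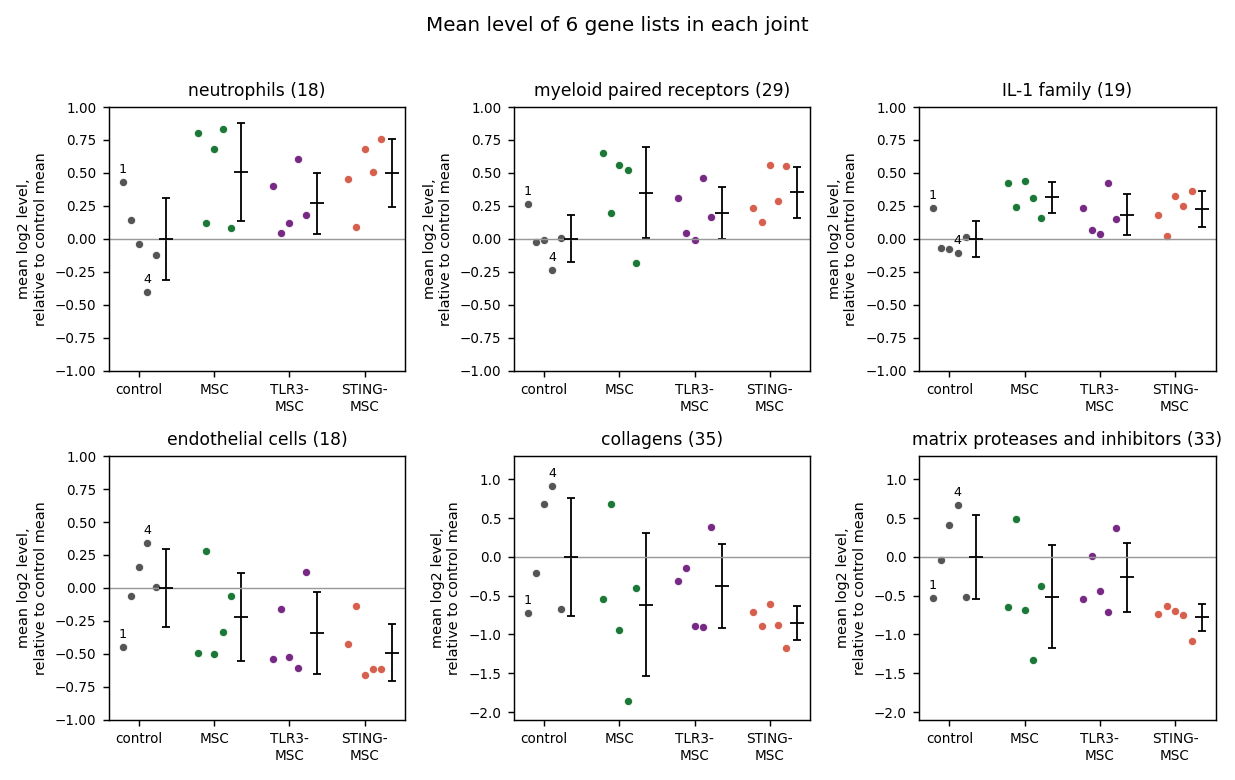
Level of 6 gene lists in each joint, as the mean of log2(normalized count + 1) over their genes, relative to the mean of the 5 control joints, with the mean ± SD (n = 5) of each group and control replicates 1 and 4 marked. Control replicates 1 and 4, marked after the values were seen, lie at the opposite ends of the control range for neutrophil (0.43 and -0.41), endothelial (-0.44 and 0.34) and collagen genes (-0.73 and 0.92). Of the 15 injected joints 15, 13 and 13 lie on the same side of the control mean as control replicate 1. For neutrophil genes control replicate 2 (0.14) lies there too, above some injected joints, such as TLR3-MSC replicate 2 (0.04).

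Connective tissue and vessel genes lay on the lower side, with 0 called. With a 2-fold difference as well as an unadjusted p within 0.05, 27 genes were higher (0.183%) and 64 lower (0.433%), a split of 70.3% lower. The split was 50% lower after quantile normalization, 16.3% without control replicate 4, 42.5% without control replicate 3, 30.8% without both and 38.7% without the STING-MSC group, so its direction turned with these joints. Of the 64 lower genes, 15 belonged to the lists of collagens, matrix proteases, fibroblasts, Wnt or TGF-beta and BMP genes, and the smallest FDR among them was 0.209 from limma. Control replicate 4 was the highest control joint for 44 of the 64 and control replicate 3 for 15. Without control replicate 4 the count was 7, without control replicate 3 it was 17, without both it was 12, without control replicates 1 or 5 or MSC replicate 2 it was 156, 114 and 147, and without TLR3-MSC replicate 5 or MSC replicate 4 it was 100 and 40. It was 12 without the STING-MSC group and 158 without the TLR3-MSC group.

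Postn, which encodes periostin, a matrix protein of injured connective tissue, was 3471, 8674, 20388, 24052 and 7341 in control replicates 1 to 5 and 1591 to 8388, median 4088, in injected joints. Control replicates 2, 3 and 4 lay above all injected joints and the other 2 within their range. The log2 difference was -1.40 (standard error 0.41, FDR = 0.254 from limma), with -1.44 in MSC, -1.12 in TLR3-MSC and -1.62 in STING-MSC joints.

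Of 35 collagen genes, 32 had a negative difference, with a median of -0.68, and 6 (17.1%) were lower at an unadjusted p of at most 0.05 against 2.86% of all genes. Col3a1, of fibrillar collagen, had a difference of -1.33 and Col12a1, which binds collagen fibrils, one of -1.09. Col12a1 was 3166, 8062, 13638, 15966 and 6055 in the control joints and 1769 to 12777, median 3148, in injected joints, so the groups overlapped. The cartilage collagen gene Col2a1 had a difference of -0.55 (unadjusted p = 0.466, limma). Without control replicate 3 or 4 the count of 6 was 0, and without control replicate 2 it was 3. Without MSC replicate 2, control replicate 1, control replicate 5 or TLR3-MSC replicate 5 it was 19, 16, 15 and 14.

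Among matrix proteases and their inhibitors 8 of 33 (24.2%) were lower at an unadjusted p within 0.05 and 1 higher. Adamts16 (-1.80), the gelatinase gene Mmp2 (-1.28) and the inhibitor gene Timp1 (-1.34) were lower, and the higher gene was Mmp8, the collagenase of neutrophils. The aggrecanase genes Adamts4 and Adamts5 had differences of -1.12 and -0.00 (unadjusted p = 0.072 and 0.984, limma). The count of 8 was 0 without control replicate 4, 2 without control replicate 3, 4 without control replicate 2, and 17 and 13 without MSC replicate 2 or control replicate 1. Of 20 fibroblast markers 4 were lower and 1 higher (Pi16, 0.38), with a median of -0.39, and the lower count was between 1 and 8 with 1 joint left out.

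Endothelial markers were all on the lower side. Of 18 genes 10 (55.6%) were lower at an unadjusted p of at most 0.05, with a median of -0.36. Aplnr, the apelin receptor of growing vessels, was 504, 713, 1032, 869 and 552 in the control joints and 317 to 809, median 416, in injected joints, with 12 of 15 below every control joint (log2 difference -0.66, FDR = 0.236 from limma). Kdr, the main VEGF receptor gene, and Cdh5, of the endothelial junction, had differences of -0.34 and -0.45. The medians of the list were -0.26 in MSC, -0.35 in TLR3-MSC and -0.50 in STING-MSC joints. The count was 2 without control replicate 4 and 4 without control replicate 3, and 1 without both. It was 13 without control replicate 1 or MSC replicate 2.

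In the Wnt list 5 of 39 genes (12.8%) were lower at an unadjusted p within 0.05 and 1, the ligand gene Wnt2 (1.24), was higher. Wnt7b, a ligand gene, was 54.0, 25.4, 31.4, 52.1 and 15.6 in the control joints and 0 to 48.7, median 7.28, in injected joints, with 11 of 15 below every control joint. Its log2 difference was -2.17 (FDR = 0.269 from limma), with -2.44 in MSC, -0.95 in TLR3-MSC and -3.13 in STING-MSC joints, and the F test among the preparations gave an unadjusted p of 0.0417. Wnt16, a ligand gene of the synovium and of bone, and the antagonist gene Sfrp2 had differences of -1.59 and -1.10. In the TGF-beta and BMP list 6 of 45 genes (13.3%) were lower and 1 higher, and Gdf5, a growth factor gene of joint formation, had a difference of -1.67 and Tgfb2 of -0.50. Without control replicate 4 the lower count was 1 in both lists, without control replicate 2 that of the Wnt list was 3, without MSC replicate 2 it was 9, and without control replicate 3 that of the TGF-beta and BMP list was 3.

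Among the immediate-early genes, which follow stimulation within minutes, Egr1 was 2692, 2695, 4315, 5559 and 2082 in the control joints and 604 to 3641, median 1575, in injected joints. Its log2 difference was -1.10 (FDR = 0.243 from limma), 9 of 15 injected joints lay below every control joint, and the values were -0.63, -1.0 and -1.65 for MSC, TLR3-MSC and STING-MSC. Fos had a difference of -0.81, whereas the C/EBP factor gene Cebpd had 0.44 and the nuclear receptor gene Nr4a3 1.06, all at an unadjusted p of at most 0.05. Of 32 genes of this list, which also holds feedback genes of NF-kB, 3 were higher and 3 lower, and with 1 joint left out these counts were 1 to 5 and 1 to 6. Among the preparations 13 of the 32 genes had an F test p of at most 0.05, against 3.37% of all genes, and the median of the list was 0.23 in MSC, -0.02 in TLR3-MSC and -0.14 in STING-MSC joints. Fos had differences of -0.00, -0.88 and -1.54 in these groups (unadjusted p = 0.00304, limma F test, FDR = 0.917).

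Of the 12 lower genes with the smallest p, 8 kept an unadjusted p of at most 0.05 under every alternative in which they were tested. These were 36 alternatives for 6 of the 8, and 35 for Lrrc18 and Cyp7b1, which the minimum mean of 20 removed. The 12 were chosen for their small p in these same joints, and the 2-fold set also had to keep its fold change. Their dependence on single control joints therefore cannot be compared with that of the 2-fold set. Hoxa5, a homeobox transcription factor, was 116, 135, 114, 109.6 and 93.9 in the control joints and 48.7 to 104, median 69.5, in injected joints, with 12 of 15 below every control joint. Its log2 difference was -0.63 (standard error 0.16, exact permutation p = 0.000903, n = 5 and 15, FDR = 0.202 from limma). Cyp7b1, the enzyme that 7-alpha-hydroxylates oxysterols, was 28.6, 23.0, 31.4, 24.7 and 19.7 in the control joints and 6.72 to 21.8, median 17.3, in injected joints, with 13 of 15 below every control joint. Its log2 difference was -0.78 (FDR = 0.209 from limma), and -0.57, -0.46 and -1.31 by preparation, which differed among themselves at an unadjusted p of 0.00537 (limma F test, FDR = 0.917).

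Mest, an imprinted gene of mesodermal tissue, was 112, 234, 386, 400.0 and 147 in the control joints and 89.0 to 172, median 118, in injected joints. Control replicates 2, 3 and 4 lay above all injected joints, and the log2 difference was -0.90 (FDR = 0.209 from limma). Epha3, an ephrin receptor gene, had a difference of -0.96, with 11 of 15 injected joints below every control joint. Zbed3 and Trim68 had smaller differences, -0.34 and -0.33, with 12 and 13 of 15 joints below every control joint. The leucine-rich repeat gene Lrrc18 had a difference of -1.16 at a control mean of 23.5, and Zfp580, the glycosylation gene Alg3, Impact and 2310022B05Rik had -0.51, -0.29, -0.27 and -0.31.

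**Figure D4:**
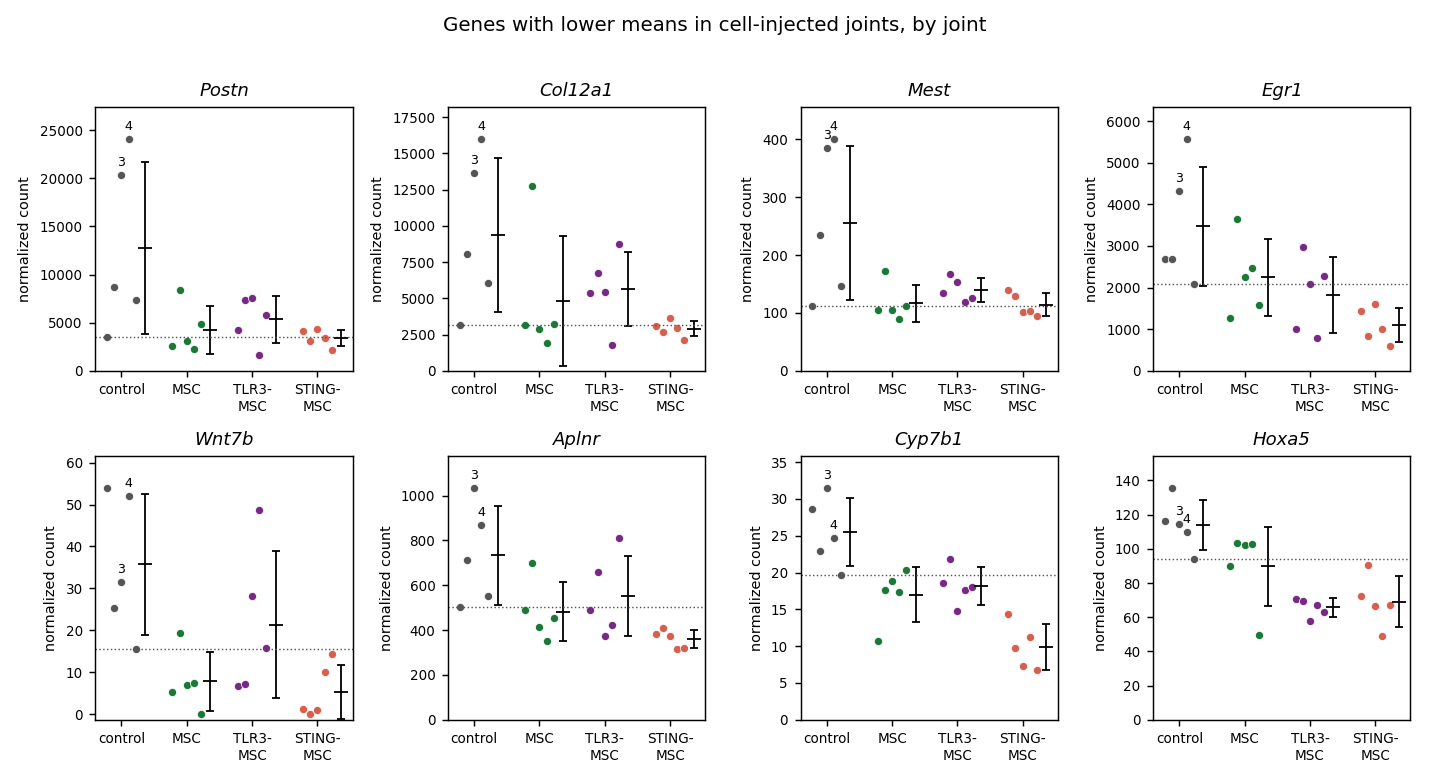
Normalized count of 8 genes with a lower mean in injected joints, in each of the 20 joints, with the mean ± SD (n = 5) of each group, control replicates 3 and 4 marked, and a dotted line at the lowest control joint. In Postn, Col12a1 and Mest control replicates 3 and 4 are the 2 highest joints of all 20, whereas for Cyp7b1 and Hoxa5 13 and 12 of 15 injected joints lie below the line.

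The higher genes with the largest differences had few reads. Colec10, a secreted lectin gene, was 2.12, 1.21, 2.51, 2.74 and 5.44 in the control joints and 1.62 to 46.9, median 16.7, in injected joints (log2 difference 1.94, FDR = 0.254 from limma), and the glutamate receptor gene Gria2 and the endopeptidase-like gene Ecel1 had differences of 1.79 and 1.72. The olfactory receptor genes Olfr810 and Olfr809 had differences of -3.55 and -3.06 and the enamel gene Ambn -2.27, and in each of them control replicates 2, 3 and 4 had the 3 highest control values. Olfr810 was 4.23, 97.9, 425, 329.7 and 13.6 in the control joints and 0 to 480.4, median 1.34, in injected joints. Olfr810 and Olfr809 are members of a family of similar copies, so their counts are uncertain. A control mean under 50 was found for 20 of the 27 genes with a 2-fold higher level and for 21 of the 64 with a 2-fold lower level, and that of Olfr810 was 174.

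Lists of metabolism and of the cell machinery held fewer such genes. Over all genes, 6.37% were higher and 2.86% lower at an unadjusted p of at most 0.05. Of 22 lipid droplet genes 4 (18.2%) were higher at that threshold, among them Abhd5 and the triglyceride synthesis gene Dgat1 (0.47). Of 17 adipocyte markers 2 (11.8%) were higher (Agpat2, 0.34, and Dgat2, 0.49). The adipocyte count was 11 without control replicate 1, 5 without control replicate 4 and 7 without MSC replicate 4. The count of 4 lipid droplet genes was 8 without control replicate 1 and 2 without control replicate 2. Of the glycolysis list 2 of 25 (8%) were higher, Hk3 (0.46) and the glucose transporter gene Slc2a3 (0.36), a share near that of all genes. In that list 14 of the 25 had a negative difference. In the retinoid list, Rdh12 (0.68) was higher beside Dhrs9, and Crabp2, a retinoic acid binding protein gene, was lower (-2.0). Of 26 sterol and oxysterol genes 3 were lower, among them Cyp7b1 and Dhcr7 (-0.20), and 1 higher, Soat1 (0.24). The lower count was 1 without control replicate 3 and 5 without MSC replicate 2, and the higher count was 0 without control replicate 4, among other joints. Of 24 heat shock genes 3 (12.5%) were higher, among them Hspa8 (0.20) and Hspa1a (0.66), which has a near-identical copy and is uncertain. Of 22 oxygen sensing genes 1 (4.55%) was higher, Ero1a (0.28). Of 15 Schwann cell and myelin genes 2 (13.3%) were lower, among them Gldn (-2.08). That count was 0 without control replicate 4 and 4 without MSC replicate 2 or STING-MSC replicate 2.

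The circadian clock list had members on both sides, as some other lists did, with 4 of 21 (19.0%) higher and 3 (14.3%) lower at an unadjusted p of at most 0.05. Per1 (0.55), Per2 (0.39), Cry1 (0.31) and Nfil3 (0.34) were higher, and Ciart (-0.54), Bhlhe41 (-0.46) and Nr1d1 (-0.43) lower. Among the preparations 7 of the 21 genes of the list had an unadjusted F test p of at most 0.05, against 3.37% of all genes. At an FDR of at most 0.05 the F test called 0 genes, and such a count carries no test. These 7 are not the 7 named above, since Per2 and Cry1 had an unadjusted p of 0.0728 and 0.403 (limma F test). Per1 had differences of 0.96, 0.22 and 0.46 and Ciart of -1.09, -0.39 and -0.12 in MSC, TLR3-MSC and STING-MSC joints (unadjusted p = 0.00441 and 0.00151, limma F test, FDR = 0.917 and 0.908). Per2 was 475, 407, 427, 417 and 562 in the control joints and 379.96 to 785, median 583, in injected joints (FDR = 0.238 from limma), and the groups overlapped. The lower count was between 1 and 6 with 1 joint left out.

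In 13 lists 0 genes passed an unadjusted p of 0.05 in either direction, although with 1 joint left out some of them held lower genes, up to 3 osteoblast and osteocyte genes (without control replicate 1 or 5) and 3 chondrocyte genes (without MSC replicate 2). They included chondrocytes (22 genes), osteoblasts and osteocytes (17), osteoclasts (16), erythroid cells (17), skeletal muscle (21), cell cycle (33), antigen presentation (23), cytosolic ribosomal proteins (38), the nuclear genes of the respiratory chain (31), and senescence and p53 (22). Epidermal markers, also without such a gene, had a summed level of 40404 in TLR3-MSC replicate 4 and 13163 in control replicate 1, against 768 to 3124 in the other joints. The list of MSC markers was not higher, with 1 of 16 higher (Alcam, 0.31) and 1 lower (Eng, -0.29), and a median of -0.27. Its members Thy1, Pdgfra and Pdgfrb are also in the fibroblast list and Eng in the endothelial list. The list therefore cannot tell injected cells from host tissue. With 1 joint left out the lower count was between 0 (control replicates 3 or 4, among others) and 5 (MSC replicate 2), with 3 without control replicate 1, and the higher count was 0 without control replicate 2, 4 or 5.

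**Figure D5:**
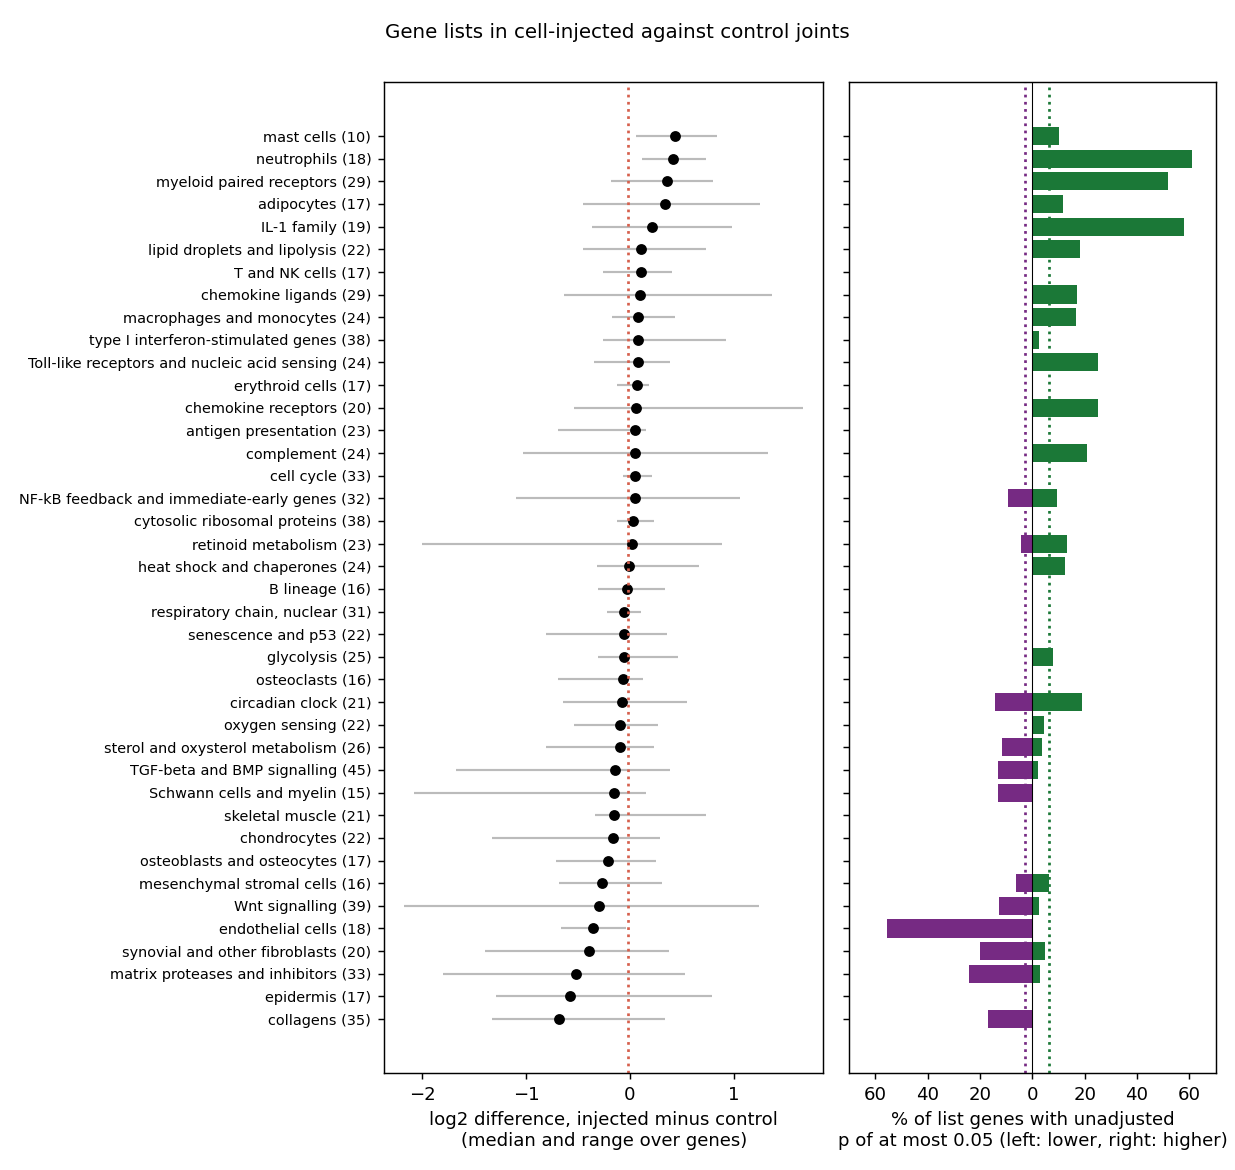
Left, median (point) and range (line) of the log2 difference, injected minus control joints, over the genes of 40 lists, with the number of genes analysed in brackets and a dotted line at the median of all genes. Right, percent of each list with an unadjusted p of at most 0.05 in either direction, with dotted lines at 6.37% higher and 2.86% lower for all genes, where neutrophil, myeloid receptor and IL-1 family lists reach 61.1%, 51.7% and 57.9% higher and the endothelial list 55.6% lower.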

How the data were processed

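RNA of 20 mouse knee joints, 5 per group, was sequenced. The authors aligned reads to GRCm39 with STAR 2.7.3a and counted them per gene with HTSeq. The deposited table holds 1 signal per gene and joint, namely counts divided by DESeq2 size factors, and genes of the mitochondrial genome were not analysed here. Whether counting used the strand was not given in the sources used here. Since the values are normalized and not raw counts, the test was limma 3.58.1 (R 4.3.3) on log2(value + 1) with 4 groups of 5, as the contrast of the mean of the 3 injected groups against control. A minimum mean of 5 removed 0 genes. The study's methods name DESeq2, so the whole reads behind the values were recovered (from 99.8% to 99.9% of values per joint were within 0.1 of a whole read) and tested as alternatives with edgeR 4.0.16 and DESeq2 1.42.0. The scripts were tested on simulated data.

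The comparison, the gene lists and the motifs were chosen with earlier results of these data known. Named genes were the 12 higher and 12 lower genes with the smallest p, the 4 with the largest fold change in each direction among genes past p 0.05 and 2-fold, the 2 members of each list with the smallest p where at most 0.05, and the 3 called genes with the smallest F test p. Other genes named were chosen after their values were seen. Same-numbered joints came from different mice. Promoter windows were read from GRCm39 with GENCODE canonical transcripts. Other alternatives tried were a stricter minimum mean of 20, pseudocounts of 0.5 or 5, no filter, quantile and TMM normalization, array weights, a replicate block, 1 pooled injected group, and leaving out a preparation or a joint. Leaving out control replicates 3 and 4 together, and MSC and STING-MSC replicates 5 together, was chosen after seeing the data.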

Additional observations from a re-analysis of the deposited data

Results flagged for a closer look

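In 13 of 292 groups of 5 joints (4.45%) 1 joint stood apart from the other 4 by more than 0.71 of the group's range, where chance gives about 1 in 20 groups. Control replicate 1 was the highest control joint for Ccr1 (2093.9), Il6ra (2708.9) and Ccl6 (7100.9). MSC replicate 5 stood apart for Hoxa5 (49.875), Dgat2 (2933.5) and Dhcr7 (487.56), and it is the joint with the most genes at 0. MSC replicate 2 stood apart for Olfr809 (105.23), Col12a1 (12777) and Col24a1 (770.32), STING-MSC replicate 2 for C5ar1 (2330.1) and Ero1a (1772.4), MSC replicate 1 for Cyp7b1 (10.723) and MSC replicate 4 for Per2 (379.96).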

How the results depend on the processing

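Of 2587 comparisons of a named gene with an alternative, 2352 kept their direction and their side of the threshold, 145 lost it, 90 gained it and 0 reversed. All 145 losses were in the 7 called genes, the only named genes that could lose it. Each of these genes lost it in 17 to 23 of 36 alternatives. Most comparisons that kept their side were of genes that stayed uncalled. The number of genes higher at an FDR of at most 0.05, 7 with limma, was 0 after quantile normalization, 13 after TMM, 2 with edgeR, 93 with DESeq2, 14 with the injected joints as 1 group, 227 with array weights, 0 without any one preparation, and 0 without control replicates 3 and 4 or without MSC and STING-MSC replicates 5. The number lower, 0 with limma, was 13 with DESeq2 and 31 with array weights. With 1 joint left out the numbers were 0 to 41 higher and 0 to 2 lower. The number 2-fold higher, 27 with limma, was 13 with a pseudocount of 5, 16 with a minimum mean of 20, 50 after quantile normalization, 67 with array weights and 20 to 73 with 1 joint left out. The number 2-fold lower, 64 with limma, was 158 without TLR3-MSC, 12 without STING-MSC, 12 without control replicates 3 and 4, and 7 to 156 with 1 joint left out. With array weights 49.2% of the 2-fold genes were lower, against 70.3%. Genes that differed among the preparations, 0 with limma, numbered 1 with edgeR, 25 with DESeq2 and 12 with array weights. The cause of these shifts was not tested. Same-numbered joints had a mean correlation of -0.0331, 3 of 20 joints correlated best with their own number, and the fit with a replicate block called 8 genes higher and 0 lower. The mean depth of injected minus control joints was between -3.46575e+06 and 2421790 reads with 1 joint left out, and turned positive without control replicate 5 (exact permutation test, two-sided, p = 0.52, n = 4 and 15). Genes of few reads have the least precise differences.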
